A study of Rattus norvegicus with 2 samples.

Results

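Ret, Gfra1, Gfra2, Gfra3, Gdnf, Nrtn, Edn3 and Ednrb were followed in a single-cell RNA survey of the fetal rat colon. They were chosen by symbol, as ligands and receptors of 2 signalling systems of the enteric nervous system. Of these 8 genes, 7 were found among the 28116 genes listed; Gfra1 was not found among the symbols and is not analysed here. The colons came from rats labelled WT at E19.5 (E for embryonic day), 1 library from the maternal obesity group and 1 library from the control group, made on the 10x Genomics Chromium after digestion with collagenase and pancreatic enzymes, a filter against clumps and lysis of red cells. The diet, the number and the sex of the fetuses behind a library are not given in the labels used here. With 1 library per group there is no replicate: differences between the libraries have no test, and every interval below is a 95% interval that covers counting error only.

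Enteric neurons and glia descend from neural crest cells that enter the gut and travel along it before birth. GDNF, made by gut mesenchyme, acts on these cells through the receptor tyrosine kinase RET, which needs a coreceptor of the GFRA family in the membrane: GFRA1 is the preferred partner of GDNF, GFRA2 of neurturin (Nrtn) and GFRA3 of artemin (Artn). Endothelin 3 (Edn3), also from the mesenchyme, acts through the G protein-coupled receptor EDNRB and keeps the crest cells undifferentiated while they migrate. Loss of either system in rodents or humans leaves the distal bowel without ganglia, as in Hirschsprung disease.

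The regions just upstream of 3 of the genes are shown because these genes mark the sending and receiving cells described below: Gdnf is the ligand, and Ret and Ednrb are the receptors of the 2 systems. Each is the 250 bases before the annotated start in the RefSeq table for GRCr8, 5′ to 3′ on the gene's strand. The regions are chr4:153040557-153040806 on the minus strand for Ret, chr15:87086766-87087015 on the minus strand for Ednrb and chr2:58621077-58621326 on the plus strand for Gdnf. Capitals mark CANNTG, the E-box core, in all 3 genes and the TATA box TATAAA in Gdnf.
Ret: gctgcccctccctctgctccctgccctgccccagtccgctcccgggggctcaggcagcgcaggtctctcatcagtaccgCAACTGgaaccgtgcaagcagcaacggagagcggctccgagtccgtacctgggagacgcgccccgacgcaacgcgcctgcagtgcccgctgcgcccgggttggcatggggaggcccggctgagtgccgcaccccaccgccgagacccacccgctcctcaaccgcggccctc
Ednrb: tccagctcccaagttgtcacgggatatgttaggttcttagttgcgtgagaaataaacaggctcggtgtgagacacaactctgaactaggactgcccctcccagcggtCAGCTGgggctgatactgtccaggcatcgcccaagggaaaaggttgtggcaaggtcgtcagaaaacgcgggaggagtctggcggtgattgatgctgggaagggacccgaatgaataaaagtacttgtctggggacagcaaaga
Gdnf: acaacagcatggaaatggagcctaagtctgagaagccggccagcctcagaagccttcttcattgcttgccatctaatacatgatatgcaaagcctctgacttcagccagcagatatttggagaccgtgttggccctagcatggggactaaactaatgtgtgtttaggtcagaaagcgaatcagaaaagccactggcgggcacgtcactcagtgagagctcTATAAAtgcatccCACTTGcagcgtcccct
Ret had a GC content of 72.8% with 25 CpG, Ednrb 53.2% with 10 CpG and Gdnf 49.6% with 6 CpG, beside a median of 51.2% over all 33469 regions in the table and quartiles of 44.0% and 60.0%. The TATAAA of Gdnf began 30 bases before the start and its CANNTG 17 bases before it; the CANNTG lay 171 bases before the start in Ret and 143 in Ednrb. Searched on both strands, CANNTG was present in 65.5% of all regions and TATAAA in 12.9%. The SOX-type words ACAAAG and ACAATG, present in 16.3% and 11.1% of all regions, were not among the letters of the 6 regions that the table held for the 8 genes. These matches describe the letters only.

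The matrices held 9714 barcodes for maternal obesity and 8903 for control. After a minimum of 500 genes and a maximum of 20% mitochondrial UMIs, 7236 and 6879 were kept, and removal of predicted doublets left 7102 maternal obesity cells and 6819 control cells, with medians of 9983.5 and 9848 UMIs (unique molecular identifiers, 1 per captured RNA molecule). The 2 libraries had 78 barcode sequences in common among these. They differed in makeup: epithelial-like cells were 20.4% of the maternal obesity cells and 43.7% of the control cells, and haemoglobin genes took 10.03% and 3.489% of UMIs. Clusters were made without the 7 genes and their family partners, so that none of them could define its own class. Each class was named from marker genes, as for the neuron-like cells led by Stmn2, Prph, Ina and Tubb3 and the glia-like cells led by Sox10, Sostdc1 and Ttyh1. Of the 2 glia-like clusters, 1 (218 maternal obesity cells and 226 control cells) scored as high on the progenitor list as on the glial list, with mean log2 scores of 1.165 and 1.155, and took its name from glial markers among its leading genes, so by these scores glia-like and progenitor-like cells are not sharply separated. The labelled tissue could be checked in the same way in part. Hoxb13, a gene of the hindgut, was among the leading genes of the epithelial clusters led by Scgb1a1, next to Sftpd. Scgb1a1 and Sftpd are best known from airway epithelium. These clusters held 113 and 16 cells in maternal obesity and 707 and 291 cells in control, so the check rested mainly on control cells.

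In the maternal obesity library, the enteric classes held 370 neuron-like, 73 progenitor-like and 503 glia-like cells, against 258, 79 and 500 cells in the control library. Progenitor-like cells were led by Gal, Hes5, Nsg2 and Dll3. The main mesenchymal classes, described below as senders, were a Kit-high cluster led by Snhg11, Fst, Olfml2b, Dkk2 and Kit, with 827 and 468 cells, and smooth muscle-like cells, with 628 and 844 cells. Kit is known from interstitial cells of Cajal, the pacemakers of the gut wall, but the Kit-high cluster as a whole did not meet the rule for that name and is called by its genes. A level is given as CPM: the UMIs of a gene divided by those of all genes, summed over the cells of a class in 1 library and put on the usual CPM scale.

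**Figure D1:**
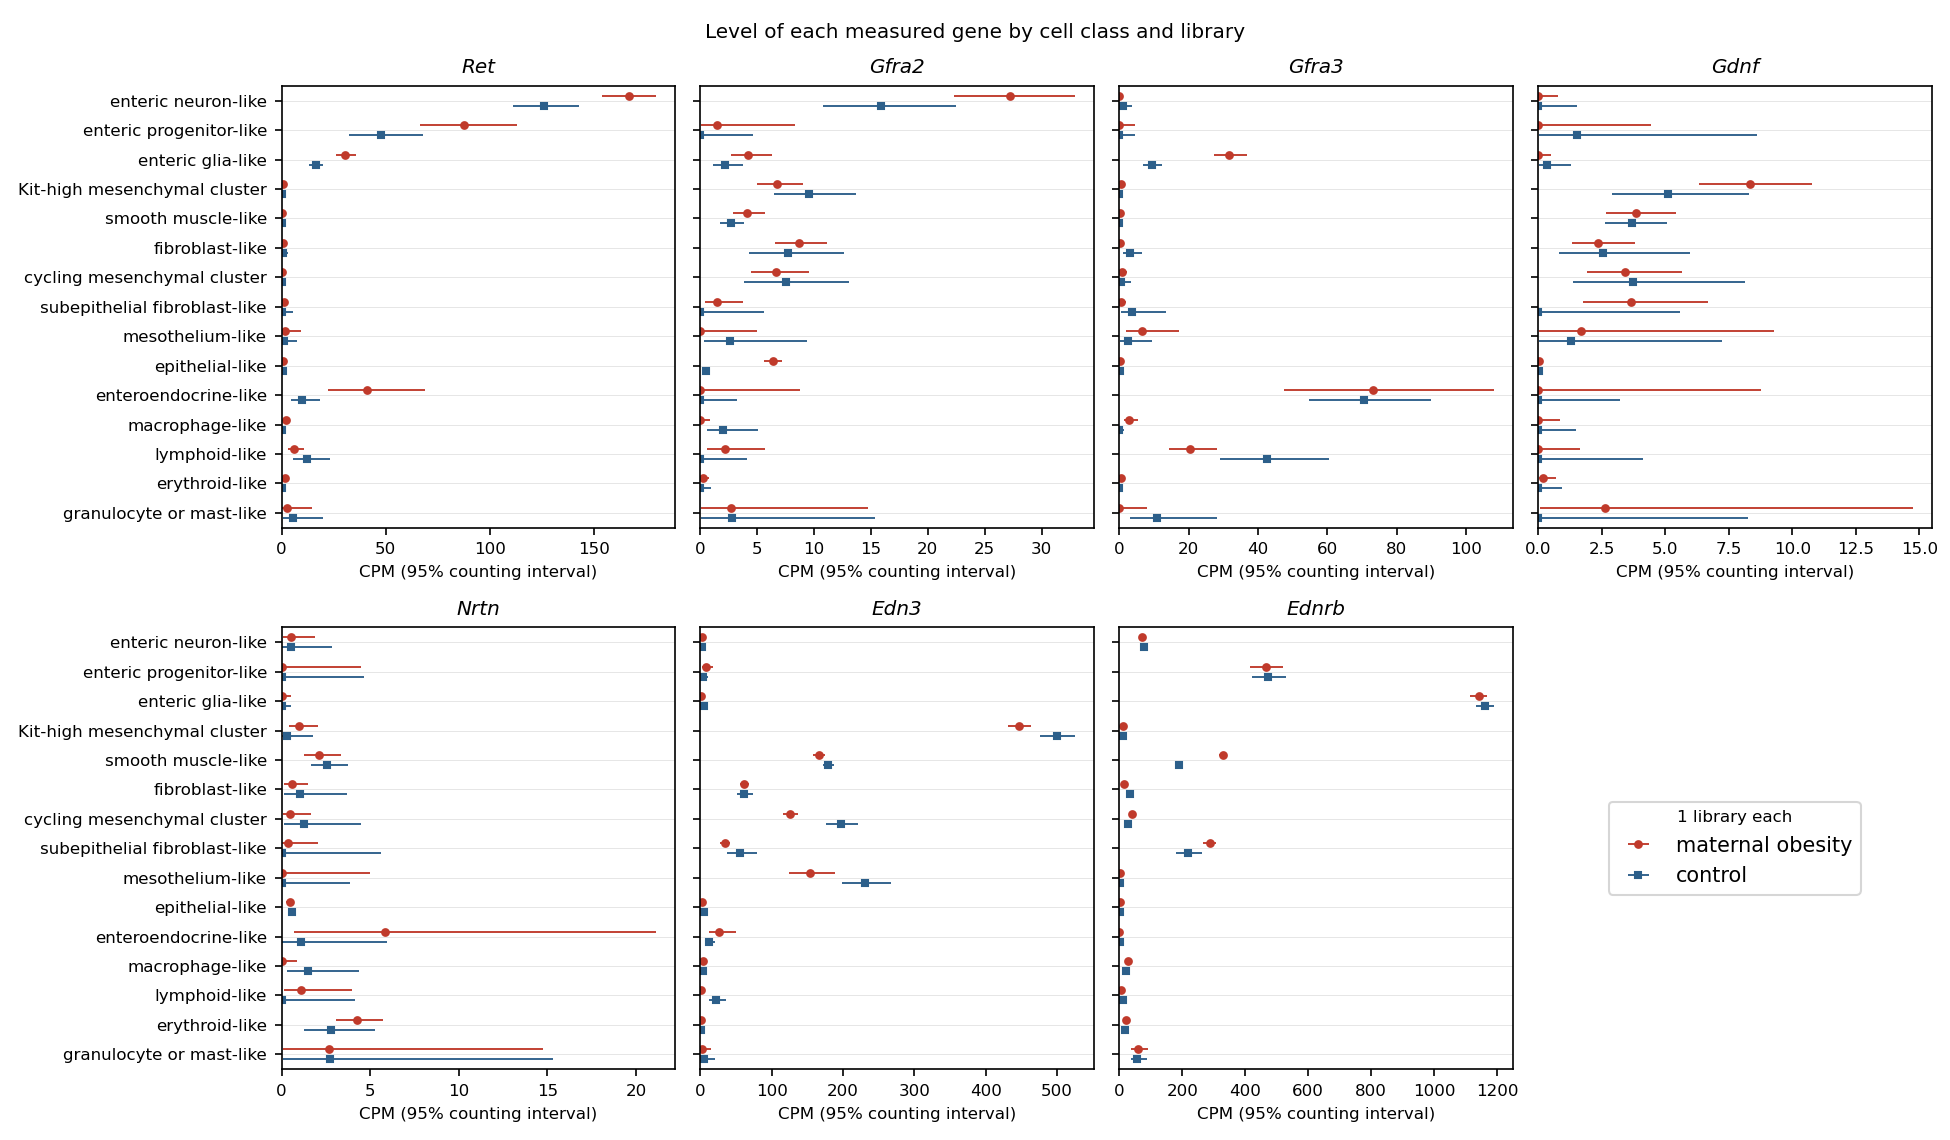
CPM of each of the 7 measured genes (x axes, linear, 1 panel per gene) in cell classes (y axis), with maternal obesity above control, 1 library each. Bars are 95% counting intervals. Endothelium-like cells (35 in maternal obesity and 39 in control) and unnamed cells (470 and 381) are not drawn. Of the classes drawn, Ret is highest in neuron-like cells, Ednrb in glia-like cells and Edn3 in the Kit-high cluster in both libraries.

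Edn3, the ligand of EDNRB, was by far the most counted ligand, with 5975 UMIs in the maternal obesity library and 4505 in the control library, and it was a mesenchymal transcript. Its level in the Kit-high cluster was 447 CPM in maternal obesity and 500.1 CPM in control. Smooth muscle-like cells had 166 CPM in maternal obesity and 179 CPM in control, and mesothelium-like cells 154 and 231 CPM. The Kit-high cluster stood above smooth muscle-like cells by 2.69-fold (2.52 to 2.86) in maternal obesity and by 2.79-fold (2.61 to 2.99) in control. The cycling mesenchymal cluster, led by Cdk1 and Top2a, had 126 and 198 CPM, below smooth muscle-like cells in maternal obesity and above them in control. Below all of these came fibroblast-like cells with 61.7 and 61.3 CPM, subepithelial fibroblast-like cells with 33.9 and 56 CPM, and epithelial-like cells with 2.89 and 4.65 CPM. The order of mesothelium-like and smooth muscle-like cells was not settled by the counts in maternal obesity, where their ratio was 0.923 (0.739 to 1.14); in control it was 1.29 (1.10 to 1.502).

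Gdnf was sparse, with 140 UMIs in maternal obesity and 72 in control, and these came from the same mesenchyme. The Kit-high cluster had 8.34 CPM in maternal obesity and 5.11 CPM in control, smooth muscle-like cells had 3.87 and 3.70 CPM, the cycling mesenchymal cluster 3.43 and 3.74 CPM, and fibroblast-like cells 2.35 and 2.56 CPM. The Kit-high cluster exceeded smooth muscle-like cells by 2.16-fold (1.38 to 3.41) in maternal obesity, while in control the ratio of 1.38 had an interval from 0.721 to 2.53. In neuron-like cells no Gdnf cell was found at 2000 UMIs per cell in either library. Epithelial-like cells had 2 Gdnf UMIs in each library.

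Nrtn, the neurturin gene, had 107 UMIs in maternal obesity and 82 in control and showed no class of its own. Smooth muscle-like cells had 2.11 CPM in maternal obesity and 2.56 CPM in control, erythroid-like cells 4.26 and 2.79 CPM, and epithelial-like cells 0.458 and 0.597 CPM. These 3 classes together held most of its UMIs, at levels where 1 class had at most 43 of them.

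Sub-clusters of the mesenchyme resolved the senders. The highest Edn3 levels were in a sub-cluster led by Id2, Tnnt1 and Asb4, with 621 CPM in maternal obesity and 748 CPM in control, and in a sub-cluster led by Fst, Adrb3 and Scx, with 628 and 488 CPM. A sub-cluster led by Sema3d, Kit and Etv1 had 376 and 416 CPM. It met the naming rule for interstitial cells of Cajal through 2 markers among its 10 leading genes, but its mean log2 score over that list was only 0.12. Of these sub-clusters, Gdnf, on few UMIs, was highest in the Fst-led one. It had 15.2 CPM in maternal obesity (21 UMIs) and 9.10 CPM in control (3 UMIs). The Sema3d-led sub-cluster had 13.2 CPM (17 UMIs) and 7.43 CPM (8 UMIs) of Gdnf. The Id2-led sub-cluster had 6.51 CPM (12 UMIs) and 5.05 CPM (5 UMIs). Cells led by Rgs5, a pericyte gene, had 10.2 and 8.91 CPM of Edn3 and at most 1 Gdnf UMI per library.

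**Figure D2:**
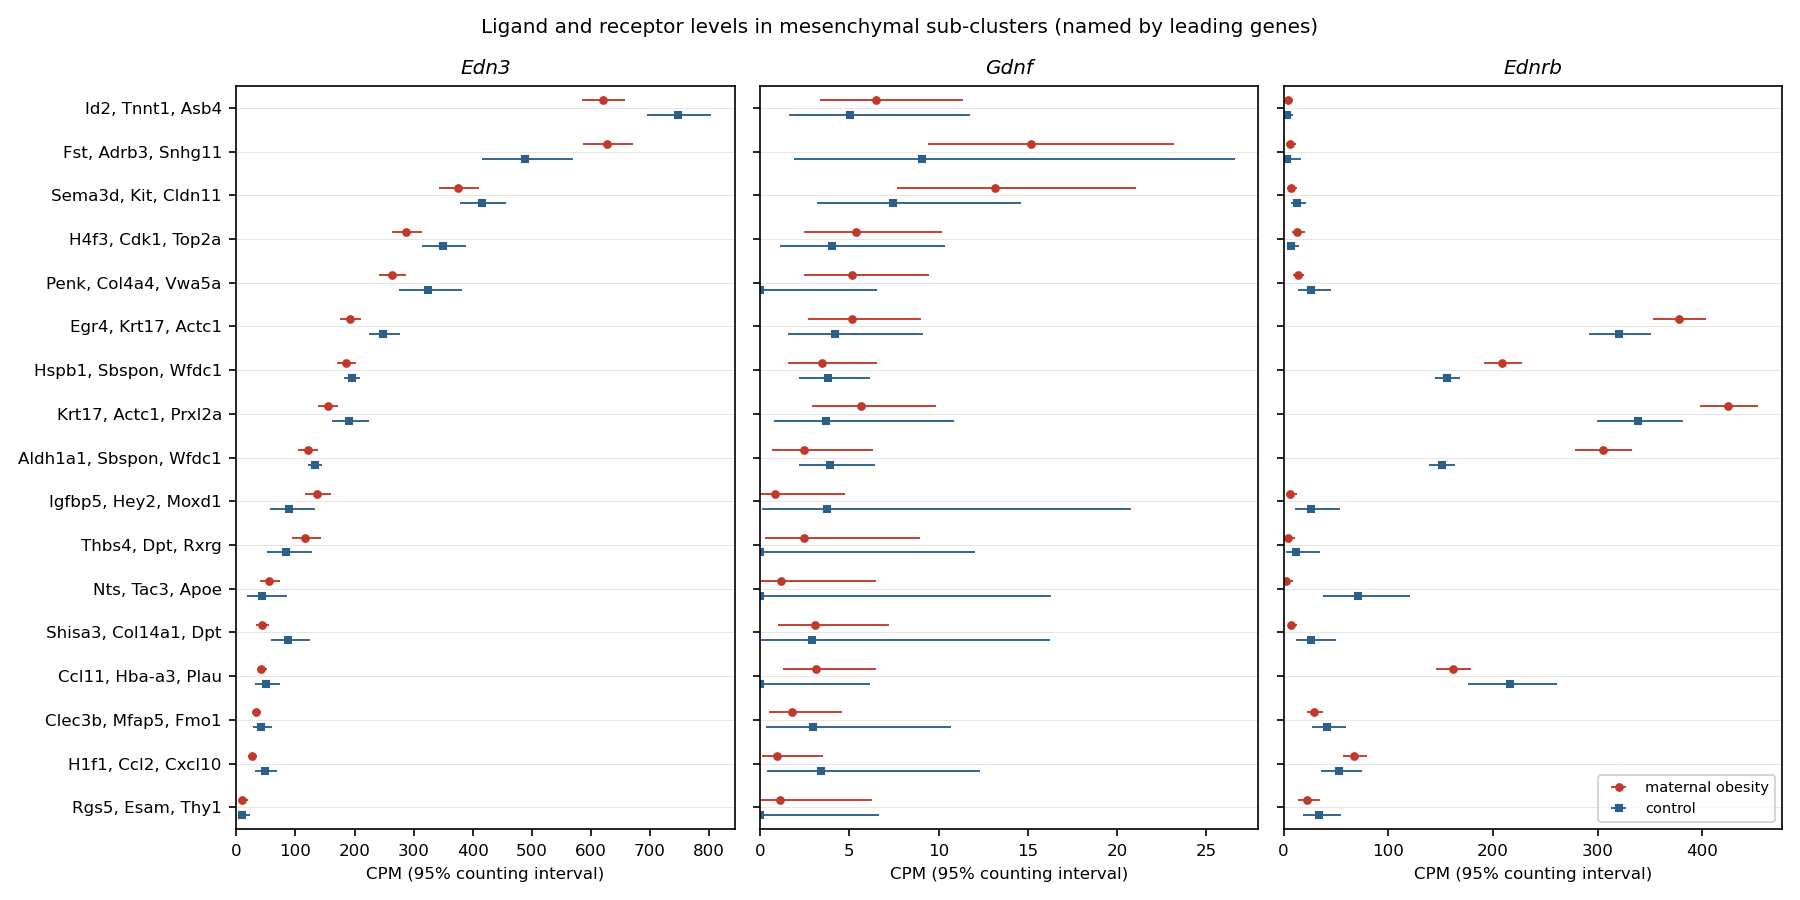
CPM of Edn3, Gdnf and Ednrb (x axes, linear) in mesenchymal sub-clusters called by 3 of their leading genes (y axis), maternal obesity above control; bars are 95% counting intervals and 1 library stands behind each point. Edn3 is 621 CPM for maternal obesity beside 748 CPM for control in the Id2-led cells at the top and 10.2 beside 8.91 CPM in the Rgs5-led cells at the bottom; of the sub-clusters drawn, which have 20 or more cells in each library and are not led by haemoglobin genes, Ednrb is highest in the 4 smooth muscle-like ones and the Ccl11-led one.

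Ednrb, the most counted of the 7 genes, had 11583 UMIs in maternal obesity and 9551 in control, and was chiefly a glial transcript. Glia-like cells had 1141 CPM (1114 to 1169) in maternal obesity and 1162 CPM (1134 to 1190) in control, and 497 of 503 and 492 of 500 of these cells had at least 1 UMI. Progenitor-like cells had 467 and 474 CPM, and neuron-like cells 71.3 and 78.2 CPM. The level in glia-like cells was 2.45-fold that in progenitor-like cells in both libraries, with intervals of 2.18 to 2.75 in maternal obesity and 2.19 to 2.76 in control, and it was 16.0-fold (14.2 to 18.1) and 14.9-fold (12.7 to 17.6) that in neuron-like cells. The neuron level, at 6.25% of the glial level in maternal obesity and 6.73% in control, was close to what the glial marker list itself left there: the summed glial markers in neuron-like cells were 9.31% and 5.58% of their level in glia-like cells. Free RNA therefore could not be told apart from expression for Ednrb in the neuron-like class as a whole.

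Outside the nervous system, of the classes with at least 50 cells in each library, Ednrb was highest in smooth muscle-like and subepithelial fibroblast-like cells. Endothelium-like cells, 35 in maternal obesity and 39 in control, are not described here. Smooth muscle-like cells had 329.8 CPM in maternal obesity and 190.4 CPM in control, and subepithelial fibroblast-like cells had 287 and 218 CPM. The smooth muscle-like levels were 28.9% of the glial level in maternal obesity and 16.4% in control. The summed glial markers stood at 15.25% and 20.27% there, and the median marker at 3.22% and 2.68%. The part of glial RNA was not tested. The Kit-high cluster, which had the most Edn3, had 11.8 CPM in both libraries: smooth muscle-like Ednrb was 28.0-fold the Kit-high level in maternal obesity and 16.1-fold in control. Smooth muscle-like and subepithelial fibroblast-like cells held RNA of both the ligand and the receptor. Granulocyte or mast-like cells had 60.9 CPM in maternal obesity (23 UMIs) and 57.7 CPM in control (21 UMIs). Macrophage-like cells had 28.3 and 20.4 CPM, with Ednrb in 50 of 397 and 27 of 259 cells. Actg2, a smooth muscle gene, gave 110 UMIs in the macrophage-like cells of maternal obesity, 11 of them in the Ednrb cells, and 545 in control, 476 of them in the Ednrb cells; its part in the macrophage value was not tested.

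Ret, the signalling receptor of the GDNF family, was mostly found in enteric cells, with 967 UMIs in maternal obesity and 425 in control. Neuron-like cells had 167 CPM (154 to 180.1) in maternal obesity and 126 CPM (111 to 143) in control and held 66.5% and 58.1% of all Ret UMIs. Progenitor-like cells had 87.7 and 47.8 CPM, glia-like cells 30.7 and 16.3 CPM, and epithelial-like cells 0.578 and 0.561 CPM. Neuron-like exceeded glia-like cells by 5.44-fold (4.59 to 6.46) in maternal obesity and 7.74-fold (6.06 to 9.96) in control, and progenitor-like exceeded glia-like cells by 2.86-fold (2.09 to 3.86) and 2.93-fold (1.89 to 4.45). The order neuron, progenitor, glia thus held in both libraries, and it ran opposite to that of Ednrb. The few enteroendocrine-like cells, 16 in maternal obesity and 50 in control, also had Ret, with 14 UMIs (41.0 CPM) and 9 UMIs (9.63 CPM).

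To set cells of unequal depth on 1 scale, each was thinned to 2000 UMIs and shallower cells were left out. Ret was then found in 22.1% of neuron-like cells in maternal obesity (76 of 344) and 17.2% in control (36 of 209), in 22.4% (15 of 67) and 7.35% (5 of 68) of progenitor-like cells, and in 5.50% (27 of 491) and 2.66% (13 of 488) of glia-like cells. Without thinning the shares were 50.3% and 40.3% for neuron-like cells. In epithelial-like cells, which should lack Ret, the thinned share was 0.150% (2 of 1330) and 0.114% (3 of 2632), at median depths of 23548 and 15313 UMIs against 9144 and 7085.5 UMIs for neuron-like cells. Ednrb was found at 2000 UMIs in 81.3% and 84.6% of glia-like, 44.8% and 55.9% of progenitor-like and 7.56% and 7.18% of neuron-like cells, and in 0.301% and 0.304% of epithelial-like cells.

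The coreceptors marked smaller groups. Gfra2, the coreceptor of neurturin, was at 27.2 CPM in neuron-like cells of maternal obesity and 15.9 CPM in control, and 6.47-fold (4.12 to 10.6) and 7.37-fold (3.68 to 15.8) higher there than in glia-like cells. It was also present at a few CPM across the mesenchyme, with 6.76 and 9.58 CPM in the Kit-high cluster and 8.66 and 7.66 CPM in fibroblast-like cells. Within fibroblast-like and other mesenchymal cells its highest level in maternal obesity was in a sub-cluster led by Thbs4, Dpt and Rxrg, with 27.3 CPM against 16.0 CPM in control. Gfra3, the coreceptor of artemin, was not detected in neuron-like cells of maternal obesity (0 of 370 cells, which allows a level of up to 0.778 CPM) and had 2 UMIs, both from 1 cell, in control. It was found in glia-like cells, with 31.7 and 9.32 CPM, in lymphoid-like cells, with 20.4 and 42.6 CPM, and in enteroendocrine-like cells, with 73.2 and 70.6 CPM.

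Sub-clusters of the enteric classes placed each receptor more exactly. All 181 Gfra3 UMIs of glia-like cells in maternal obesity, and 51 of 52 in control, came from a small sub-cluster led by Olfml2a, Postn and Entpd2: it had 43 cells in maternal obesity and 16 in control, with 431 and 428 CPM of Gfra3. Its Ednrb was the highest of any enteric sub-cluster, with 2083 CPM in maternal obesity and 2456 CPM in control, and its Ret was 7.14 CPM (3 UMIs) and 0. The inhibitory neuron-like sub-cluster, led by Vip and Cartpt and also holding Nos1, the enzyme that makes nitric oxide, had 393 and 254 CPM of Ret and no Gfra2 UMI in either library. A sub-cluster led by Sncg, Nts, Pdyn and Calb1 had 342 and 284 CPM of Ret and 27.7 and 27.6 CPM of Gfra2.

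Gfra2 peaked in another set of neuron-like cells, those with Pcp4, Olfm1 and Syn2 among their leading genes: 49.2 CPM in 160 cells of maternal obesity and 28.4 CPM in 95 cells of control, where the Sncg-led cells were as high within the intervals. The Olfml2a-led glia-like cells had 26.2 CPM (11 UMIs) and 16.8 CPM (2 UMIs) of Gfra2. The Pcp4-led neuron-like cells had 620 and 676 CPM of the enkephalin gene Penk, 137 and 89.8 CPM of the tachykinin gene Tac1 and 10.7 and 15.8 CPM of Chat, the acetylcholine enzyme, with 108 and 50.4 CPM of Ret. The granulocyte genes S100a9, Stfa2 and S100a8 headed the ranking of this sub-cluster; all 284 UMIs of S100a8 in maternal obesity were from 1 cell, and control had 0. The sub-cluster is therefore called by Pcp4. A less mature set led by Rgs4, Gal and St18 had 60.7 and 46.7 CPM of Ret and no Gfra2, and the Dll3- and Myc-led set, mostly progenitor-like, combined 84.9 and 38.9 CPM of Ret with 501 and 677 CPM of Ednrb.

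RET signals only with a coreceptor in the same membrane, so pairs of receptor RNAs were counted per cell at 2000 UMIs. Ret with Gfra2 was seen in 7 of 344 neuron-like cells in maternal obesity (2.04%, interval 0.822 to 4.15) and in 2 of 209 in control (0.957%, 0.116 to 3.41). Of the Gfra2 cells 41.2% and 28.6% had Ret, beside 22.1% and 17.2% of all neuron-like cells. Gfra2 cells were few at this depth, so these shares could not be told apart from independence. Without thinning 12.2% and 4.26% of neuron-like cells had both. Ret and Gfra3 were not seen together in any neuron-like, progenitor-like or glia-like cell at this depth. Gfra3 cells were few and Ret was in few glia-like cells, so this absence could not be told apart from independence. Of the Gfra3 glia-like cells, 14 of 14 and 5 of 6 had Ednrb, beside 81.3% and 84.6% of all glia-like cells. Ret with Ednrb was most frequent in progenitor-like cells, with 8 of 67 in maternal obesity (11.9%, 5.30 to 22.2) and 4 of 68 in control (5.88%), against 4.28% and 2.25% of glia-like cells and 2.62% and 0.957% of neuron-like cells. The counting interval of each library overlapped that of the other for Ret with Ednrb in progenitor-like cells. In progenitor-like and glia-like cells the shares with both genes were near the product of the single-gene shares given above. They thus show no pairing of Ret and Ednrb beyond those shares.

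Maternal obesity was then set against control within each class. A gene counted as measured in a class with at least 20 UMIs over both libraries, and as higher or lower when its CPM ratio, maternal obesity over control, passed 1.5-fold. Of 91 pairs of gene and class in the 13 classes with at least 50 cells in each library, 42 were measured: 11 were higher, 8 were lower and 23 stayed under 1.5-fold. In neuron-like cells 1 of 3 measured genes was higher, beside 15.9% of all genes measured there (5.21% were lower). In progenitor-like cells it was 1 of 2 (18.5% higher and 8.06% lower over all genes). In glia-like cells 3 of 5 were higher and 1 lower (18.5% and 4.34%).

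Among mesenchymal classes, 1 of 4 measured genes was higher in the Kit-high cluster, where 19.8% of all genes were higher and 4.01% lower. Smooth muscle-like cells had 2 of 5 higher (18.3% higher and 5.39% lower over all genes), fibroblast-like cells 1 of 4 lower (18.9% and 6.53%), the cycling mesenchymal cluster 1 of 4 lower (16.6% and 6.13%) and subepithelial fibroblast-like cells 1 of 2 lower (20.2% and 11.3%). In epithelial-like cells 2 of 6 were higher and 1 lower (12.2% and 11.6%). All 3 genes measured in lymphoid-like cells were lower, where 12.4% of all genes were lower and 14.8% higher. Markers of other cell types differed between the libraries in these cells too: the summed smooth muscle markers were 123.4 CPM in maternal obesity and 1882 CPM in control, the epithelial markers 306.9 and 955.4 CPM, the glial markers 6.06 CPM (2 of 13 seen) and 10.98 CPM (4 of 13 seen), and the haemoglobin genes 52410 and 15510 CPM. Their part in the lymphoid-like values was not tested. Of 2 genes measured in erythroid-like cells 1 was higher, where 3.93% of all genes were higher and 66.7% lower, and Ednrb, the 1 gene measured in macrophage-like cells (17.9% and 7.39%) and in granulocyte or mast-like cells (22.1% and 13.1%), stayed under 1.5-fold in both.

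**Figure D3:**
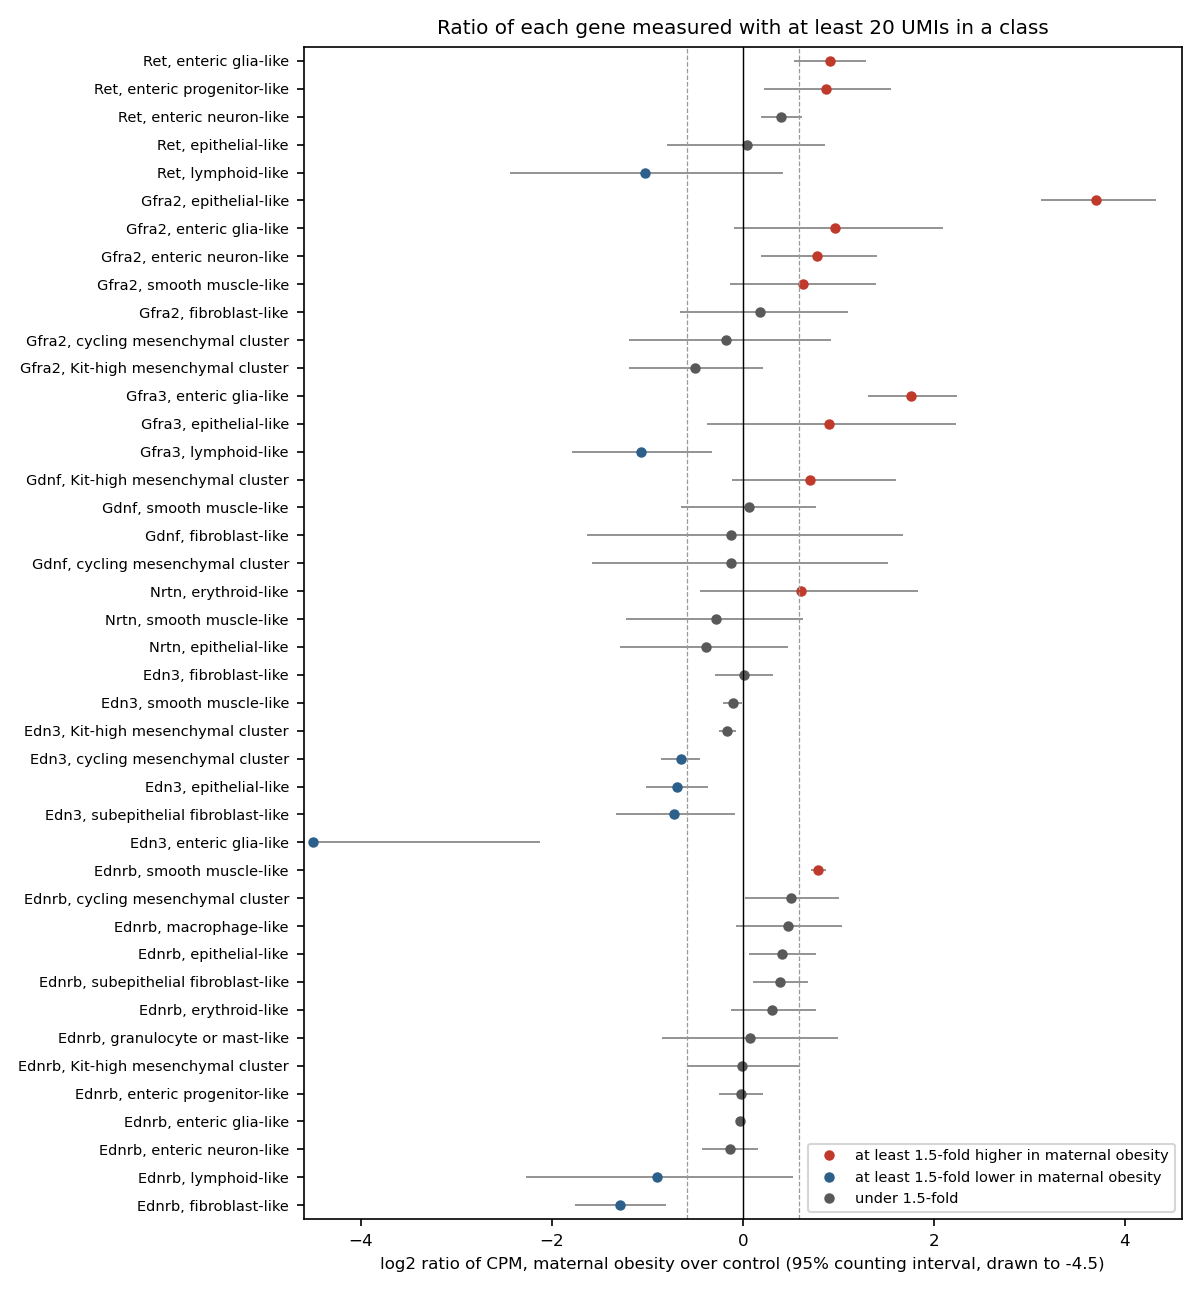
The log2 ratio of CPM, maternal obesity over control (x axis), for the 42 gene and class pairs with at least 20 UMIs (y axis), coloured by whether the ratio passes 1.5-fold; bars are 95% counting intervals and the Edn3 point of glia-like cells is drawn at the axis limit. Gfra2 in epithelial-like cells (13.01-fold) lies farthest to the right.

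Ret was higher in maternal obesity in the 3 enteric classes, past 1.5-fold in 2 of them. The ratio was 1.32 (1.14 to 1.54) in neuron-like cells, from 643 and 247 UMIs, 1.83 (1.17 to 2.93) in progenitor-like cells, from 59 and 31 UMIs, and 1.88 (1.45 to 2.45) in glia-like cells, from 175 and 91 UMIs. When every cell was given equal weight the neuron ratio was 1.07 and the progenitor ratio 1.31, which ends the progenitor call; weighting the neuron sub-clusters equally gave 1.58. The 8 enteric sub-clusters that had 30 or more cells per library and 20 or more Ret UMIs were then read apart. Ret was higher in 8 of 8, with ratios from 1.21 to 2.81, and past 1.5-fold in 6. Of 3975 genes measured in the same 8 sub-clusters, 7.97% were higher in all 8 and 2.67% were past 1.5-fold in at least 6.

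The sub-cluster ratios of Ret had wide intervals where UMIs were few. The Pcp4-led neuron-like cells had a ratio of 2.14 (1.46 to 3.23), the Vip-led cells 1.55 (1.17 to 2.06), the Sncg-led cells 1.21 (0.956 to 1.53) and the Rgs4-led cells 1.61 (0.851 to 3.21). The Dll3-led progenitor-like cells had 2.77 (1.51 to 5.24). Of the glia-like cells, the Tuba1c-led cycling set had 2.81 (1.38 to 6.09), the Hmox1-led set 2.35 (1.24 to 4.67) and the Ccnd1-led set 1.45 (0.769 to 3.00). These sets were not equal in size between the libraries: the Ccnd1-led set had 205 cells in maternal obesity and 43 in control, and a set led by Mrap and Cbr3, too small in maternal obesity for a ratio, had 27 and 177 cells. In that set Ret was 15.4 CPM in maternal obesity and 21.7 CPM in control, and in a Zfp804a-led set of 34 and 8 cells it was 56.7 and 74.6 CPM, so that Ret was not higher in every enteric set.

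**Figure D4:**
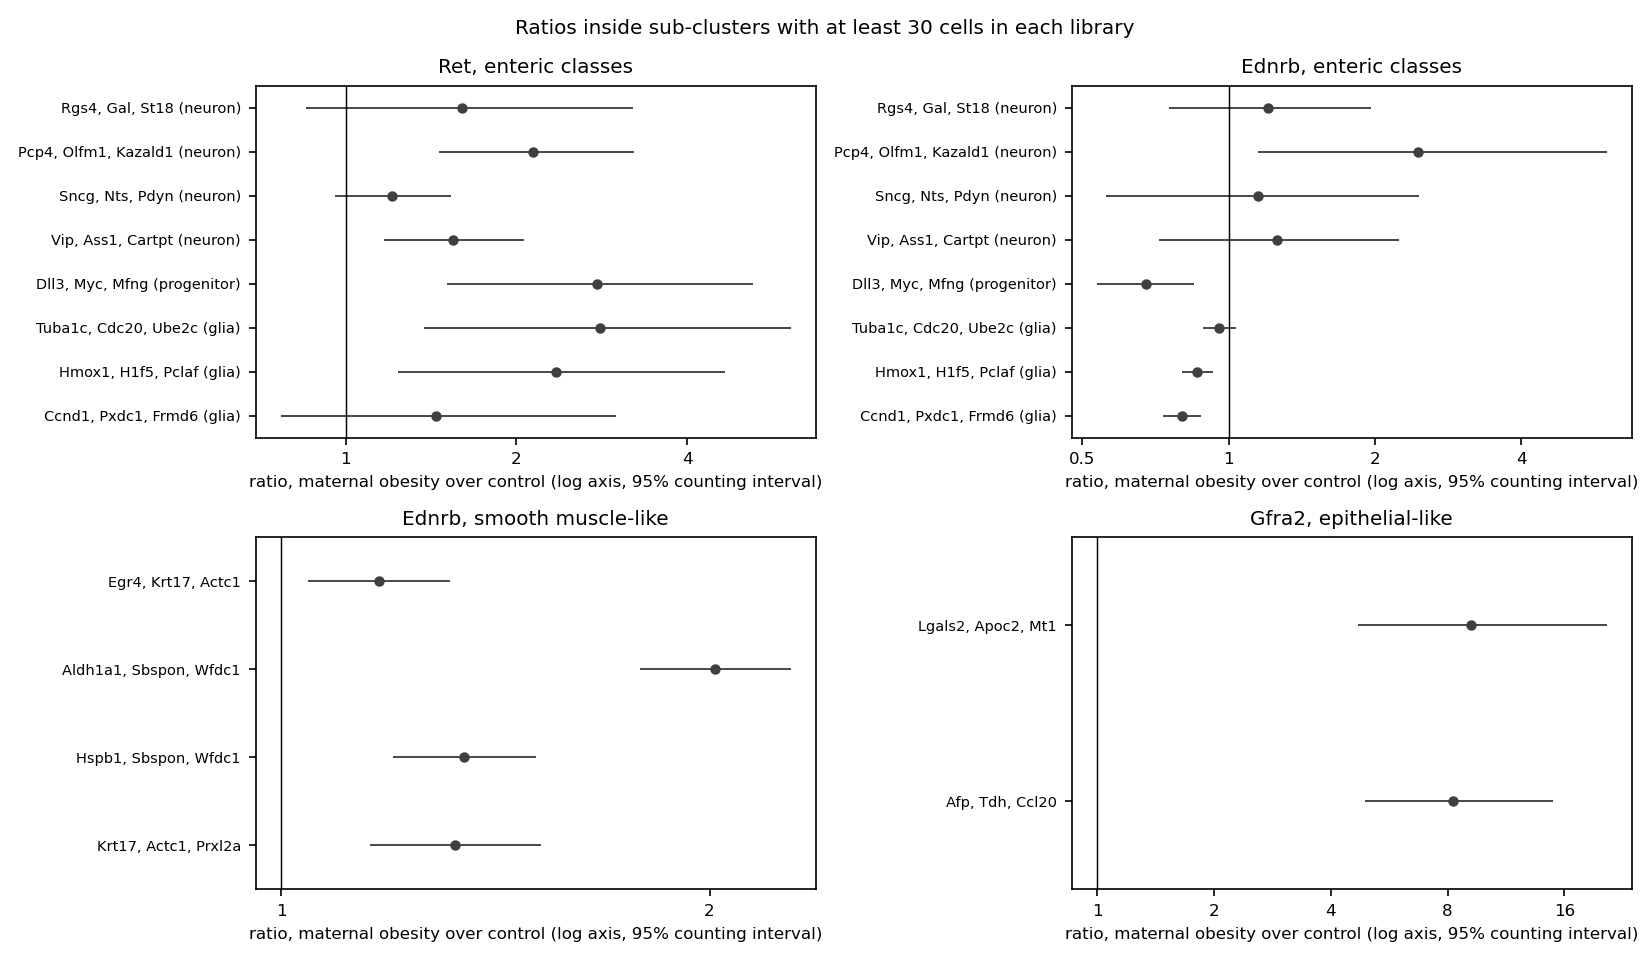
CPM ratio, maternal obesity over control (x axes, log scale), of Ret and Ednrb in enteric sub-clusters, Ednrb in smooth muscle-like sub-clusters and Gfra2 in epithelial-like clusters (y axes, leading genes), in sets of 30 or more cells per library; bars are 95% counting intervals and the line marks 1. All 8 Ret points lie right of the line, from 1.21 to 2.81.

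Ednrb summed over each enteric class stayed under 1.5-fold. Its ratio was 0.982 (0.949 to 1.02) in glia-like cells, from 6510 and 6482 UMIs, 0.985 (0.839 to 1.16) in progenitor-like cells and 0.912 (0.746 to 1.12) in neuron-like cells. Inside sub-clusters it was lower in glia-like cells, with 0.957 (0.885 to 1.04), 0.862 (0.803 to 0.926) and 0.801 (0.733 to 0.878), and in the Dll3-led progenitor-like cells, with 0.676 (0.536 to 0.848). In neuron-like cells it was above 1 in the 4 sub-clusters measured, with 2.45 (1.15 to 5.99) in the Pcp4-led cells, from 49 and 8 UMIs, and from 1.149 to 1.255 in the other three, whose intervals included 1. With the 4 weighted equally the neuron ratio was 1.41, with equal weight per cell 1.16, and with classes set by marker UMIs 0.636, so its direction was not settled. Ret and Ednrb thus differed in direction in the Dll3-led progenitor-like cells, with 110.3 CPM of Ret in maternal obesity and 39.8 CPM in control, beside 382 and 566 CPM of Ednrb.

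In smooth muscle-like cells Ednrb was higher in maternal obesity, with a ratio of 1.73 (1.64 to 1.84) from 2816 and 2008 UMIs, and it was found at 2000 UMIs in 39.2% (242 of 618) and 28.0% (228 of 813) of these cells. The direction was the same in the 4 sub-clusters measured, where the ratio was 1.17 (1.04 to 1.32) in the Egr4-led cells, 2.02 (1.79 to 2.28) in the Aldh1a1-led cells, 1.35 (1.20 to 1.51) in the Hspb1-led cells and 1.32 (1.15 to 1.52) in the Krt17-led cells. With the 4 weighted equally the ratio was 1.43, and with classes set by marker UMIs it was 1.26, both under 1.5-fold. The summed glial markers in these cells were 114 CPM in maternal obesity and 132 CPM in control. The sum was 15.25% and 20.27% of that in glia-like cells, while the median marker stood at 3.22% and 2.68%. The part of glial RNA in the smooth muscle-like Ednrb values was not tested. In subepithelial fibroblast-like cells the ratio was 1.31 (1.08 to 1.61), but in the Ccl11-led set, the only sub-cluster of that class measured, it was 0.777 (0.623 to 0.976); an Ereg- and Nrg1-led sub-cluster at 707 CPM held 70 cells in maternal obesity and 1 in control. Fibroblast-like Ednrb was lower, at 13.7 CPM in maternal obesity and 33.2 CPM in control (ratio 0.411, 0.296 to 0.573), with a ratio of 0.270 (0.105 to 0.726) in the Shisa3-led cells and 1.07 (0.625 to 1.91) in the Clec3b-led cells; the summed glial markers in fibroblast-like cells were 41.0 and 78.2 CPM, and their part was not tested.

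Edn3 stayed under 1.5-fold in the Kit-high cluster, its main source, and passed 1.5-fold lower in several classes with less of it. Its ratio was 0.894 (0.841 to 0.9501) in the Kit-high cluster, 0.929 (0.867 to 0.996) in smooth muscle-like cells and 1.01 (0.819 to 1.24) in fibroblast-like cells, where 8 of 10 alternatives put it under 1, from 0.624. Mesothelium-like cells, with 154 and 231 CPM, had 46 and 69 cells and fell short of the 50 cells set for a ratio. It passed 1.5-fold lower in the cycling mesenchymal cluster (0.636, 0.553 to 0.733), in subepithelial fibroblast-like cells (0.605, 0.397 to 0.947) and in epithelial-like cells (0.621, 0.496 to 0.775). A limit of 10% mitochondrial UMIs moved the cycling value to 0.683, and equal weight per cell moved the subepithelial value to 0.682, each ending the call. Weighting the cycling sub-clusters equally gave 0.671, also under 1.5-fold. The H4f3-led set (124 and 75 cells), with 454 and 286 Edn3 UMIs, had 0.859 (0.739 to 0.999). The H1f1-led set (164 and 55 cells), with 48 and 26 UMIs, had 0.5285 (0.3214 to 0.8875). The direction did not hold throughout the epithelium: the Scgb1a1- and Adh6-led cluster had 1.16 (0.462 to 2.59), and enteroendocrine-like cells 26.3 and 11.8 CPM from 9 and 11 UMIs. Inside the Kit-high cluster the Id2-led cells had 0.834 (0.759 to 0.917) and the Sema3d-led cells 0.858 (0.749 to 0.982), while the Fst-led cells had 1.29 (1.09 to 1.53). Glia-like Edn3, at 1 UMI in maternal obesity and 26 in control, had the ratio farthest from 1 of the measured pairs (0.0376). Without the enteric sub-clusters led by genes of other cell types it was 0 and 2 UMIs, too few to be measured; a Col3a1- and Acta2-led set of 22 cells among these, spread over the enteric classes, had 10 and 27 Edn3 UMIs. Gdnf in the Kit-high cluster was 1.63-fold higher, but its interval from 0.925 to 3.04 included 1 and it rested on 58 and 16 UMIs; in smooth muscle-like cells its ratio was 1.05 (0.637 to 1.71).

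The coreceptor ratios rested on fewer cells. Gfra2 in neuron-like cells was 1.72-fold higher in maternal obesity (1.14 to 2.66), from 105 and 31 UMIs, with 1.73 (1.03 to 3.08) in the Pcp4-led cells and 1.00 (0.443 to 2.37) in the Sncg-led cells; equal weight per cell gave 1.26 and equal weight per sub-cluster 1.30, both under 1.5-fold. Glial Gfra2 had a ratio of 1.96 (0.941 to 4.29) from 24 and 12 UMIs. The Olfml2a-led cells, of which maternal obesity had more, held 13 Gfra2 UMIs over both libraries. Smooth muscle-like Gfra2 had a ratio of 1.54 (0.913 to 2.64), which was 1.48 at a mitochondrial limit of 10%. Glial Gfra3 was 3.40-fold higher (2.49 to 4.73), but the Olfml2a-led cells that held it were 43 in maternal obesity and 16 in control, with near equal levels of 431 and 428 CPM within them. Lymphoid-like Gfra3 was lower, with a ratio of 0.479 (0.289 to 0.799) from 37 and 31 UMIs and thinned shares of 3.98% (8 of 201) and 11.3% (11 of 97); Ret (0.491, 0.185 to 1.34) and Ednrb (0.535, 0.207 to 1.44) were also called lower in lymphoid-like cells from 20 and 21 UMIs in all, and a mitochondrial limit of 10% gave 0.816 and 0.714, ending both calls. The Nrtn ratio of 1.53 (0.734 to 3.56) in erythroid-like cells turned to 0.908 with equal weight per cell.

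The largest ratio above 1 was outside the nervous system: epithelial-like Gfra2 was 6.36 CPM in maternal obesity and 0.489 CPM in control, a ratio of 13.01 (8.74 to 20.1) from 264 and 27 UMIs. It was found in 207 of 1445 and 24 of 2982 epithelial-like cells, and at 2000 UMIs in 1.05% (14 of 1330) and 0.0380% (1 of 2632). The gap was present inside both clusters that had it: 5.25 and 0.572 CPM (ratio 9.19, 4.69 to 20.6) in cells led by Lgals2, Apoc2 and Mt1, and 12.1 and 1.46 CPM (8.28, 4.90 to 14.9) in cells led by Afp, Tdh and Ccl20. Goblet-like cells led by Retnlb and Spink1 had 7 and 0 UMIs, and the Scgb1a1- and Sftpd-led clusters 0 in maternal obesity and 1 in control. Gfra2 was too sparse for a ratio in macrophage-like cells, with 0 and 4 UMIs, in lymphoid-like cells and subepithelial fibroblast-like cells, each with 4 and 0, and in erythroid-like cells, with 2 and 0. Ret, the signalling partner, was at 0.578 and 0.561 CPM in epithelial-like cells. Epithelial-like Gfra3 had a ratio of 1.86 (0.770 to 4.69) from 14 and 10 UMIs, and 0.550 with classes set by marker UMIs.

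The other members of both pathways were read from lists of partner genes, in the classes that send or receive. Of 7 GDNF family partners, Ncam1, an alternative GDNF receptor, was the 1 gene measured in neuron-like cells, with 98.0 CPM in maternal obesity and 62.4 CPM in control (ratio 1.57), and in progenitor-like cells, with 62.4 and 37.0 CPM (1.69); in glia-like cells it had 98.5 and 72.2 CPM (1.36). Gdf15, the ligand of GFRAL, was lower in glia-like cells, with 3.86 and 8.07 CPM (0.478), and Gfral had no UMI in any class. Artn had 5.75 and 4.79 CPM in the Kit-high cluster and 8.37 and 19.4 CPM in fibroblast-like cells, and Pspn had at most 31 UMIs in any class and library. Gfra4 was at 4.17 and 2.24 CPM in the Kit-high cluster and Gas1, a GFRA-related RET modulator, at 34.5 and 25.9 CPM.

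Of 7 endothelin partners, Ece1, the enzyme that matures endothelins, had 108 and 76.6 CPM in the Kit-high cluster (ratio 1.41), 57.2 and 55.3 CPM in smooth muscle-like cells and 28.2 and 22.1 CPM in glia-like cells. Ednra, the receptor favoured by endothelin 1, had 46.1 and 31.3 CPM in the Kit-high cluster and 51.2 and 59.3 CPM in fibroblast-like cells. Ece2 passed 1.5-fold in neuron-like cells, with 9.60 and 5.62 CPM (1.71, 0.852 to 3.71), and Edn1 passed it downward, with 3.63 and 7.67 CPM (0.474, 0.212 to 1.05); both intervals included 1. Among the classes read for partner genes, Edn1 was mainly epithelial, with 191 CPM in maternal obesity and 140.2 CPM in control. Endothelium-like cells were not among them. In all, 2 of 4 measured endothelin partners were higher and 1 lower in neuron-like cells (15.9% and 5.21% of all genes), 1 of 4 higher in glia-like cells (Ece2, beside 18.5% of all genes), and 2 of 4 lower in the Kit-high cluster (4.01% of all genes). With a minimum of 50 UMIs 1 gene was measured in neuron-like cells and 2 in glia-like cells, and 0 of them passed 1.5-fold. Mme, which degrades peptides, had 16.6 and 9.71 CPM in fibroblast-like cells, and Kel 16.6 and 15.5 CPM in erythroid-like cells.

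Of 26 genes of RET signalling and its feedback, 6 of 21 measured were higher and 0 lower in neuron-like cells, where 15.9% of all genes were higher and 5.21% lower, and the median log2 ratio was 0.17, against 0.06 over all genes there. In progenitor-like cells 8 of 19 were higher and 0 lower (18.5% and 8.06% of all genes), with a median of 0.55 against 0.08, but with a minimum of 50 UMIs it was 5 of 11 and the median was 0.074 against 0.075. In glia-like cells 5 of 22 were higher and 0 lower (18.5% and 4.34%), with a median of 0.36 against 0.11. At a fold of 2 the counts of higher genes were 1 in neuron-like, 2 in progenitor-like and 1 in glia-like cells. The 6 past 1.5-fold in neuron-like cells were Spry1, Grb10, Gab2, Plcg1, Cbl and Pik3ca. Of the abundant genes of the list there, the ERK kinase Mapk3 (267 and 291 CPM) and the PI3 kinase subunit Pik3r1 (137 and 131 CPM) stayed under 1.5-fold. The adaptor Grb10 was higher in progenitor-like cells, with 199 and 102 CPM (ratio 1.96), in glia-like cells, with 200.4 and 117 CPM (1.71), and in the Kit-high cluster, with 274 and 160.3 CPM (1.71). It was higher as well in smooth muscle-like cells, with 145 and 62.1 CPM (2.34), in fibroblast-like cells, with 276 and 152 CPM (1.82), and in subepithelial fibroblast-like and epithelial-like cells, so its ratio was not particular to the classes with Ret.

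Of 20 transcription factors of enteric neural crest, 18 were found among the symbols. Of those measured, 3 of 13 were higher in neuron-like cells (15.9% of all genes), 6 of 13 in progenitor-like cells (18.5%) and 8 of 15 in glia-like cells (18.5%), and 0 were lower in these classes; at a fold of 2 the counts were 1, 1 and 3. Phox2a, a homeobox factor of autonomic neurons, had 777 and 875 CPM in neuron-like cells (ratio 0.888), and the Notch target Hes5 had 523 and 439 CPM there (1.19). In glia-like cells Hes5 had 1112 and 409.9 CPM (2.71) and Zeb2 325 and 192 CPM (1.69). Of 28 other ligands and receptors of crest migration, 6 of 15 measured were higher and 1 lower in neuron-like cells, 4 of 8 and 0 in progenitor-like cells, and 8 of 15 and 0 in glia-like cells, beside the same shares of all genes. A fold of 2 left 2, 1 and 1 higher, and a minimum of 50 UMIs left 1 of 4 in progenitor-like cells. L1cam, an adhesion molecule, had 301 and 182 CPM in neuron-like cells (1.65), Nrp1 127 and 84.4 CPM (1.51) and the integrin Itgb1 221 and 202 CPM (1.10). In glia-like cells the median log2 ratio was 0.62 over the transcription factors and 0.60 over the migration genes, against 0.11 over all genes.

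The genes whose levels followed each gene most closely were ranked by Pearson's r over 26 points, the 13 classes in both libraries, among 13260 genes with at least 100 UMIs. These points share libraries and depth, and the values describe likeness only. Ret was followed by En1 (r = 0.944), Dnajc6 (0.926) and Zfp804a (0.926), and Ednrb by Zfp536 (0.852), Slc38a3 (0.831) and Gpm6a (0.809). Edn3 was followed by Hoxa11 (0.946), Dkk2 (0.942) and Acta2 (0.942), and Gdnf by Adrb3 (0.917), Rdh10 (0.902) and Kcnip1 (0.893). For the coreceptors the values were lower, with Gpr85 (0.836), Ly6h (0.827) and Prickle4 (0.820) for Gfra2, and Pdgfb (0.732), Gata3 (0.686) and Ppp1r16b (0.677) for Gfra3. Nrtn was followed by Phospho1 (0.705), Ifit1 (0.697) and RGD1310507 (0.678).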

How the data were processed

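Single-cell RNA-seq of rat colon at E19.5 was read from the 2 deposited matrices, 1 per group, which hold raw UMI counts per gene and barcode made by the authors. Per the submitters' processing notes Cell Ranger 2.1.1 was used, while the matrices' own headers name cellranger 6.1.2; no genome build is named (not given in the sources used here). Total deposited counts were 120811946 UMIs for maternal obesity and 103013814 for control. Barcodes with under 500 genes or over 20% mitochondrial UMIs were left out. Scrublet, through scanpy 1.11.5, marked 134 doublets (1.85%) in maternal obesity and 60 (0.872%) in control, which were removed.

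Counts scaled to 10000 per cell were log-transformed, and 2000 variable genes, 30 principal components, 15 neighbours and Leiden resolution 1.0 gave the clusters; the 7 genes and their GDNF family and endothelin partners were kept out of the variable genes and out of naming. Clusters were named from fixed marker lists by a rule set after the clusters were seen: at least 2 markers among the 10 leading genes and 3 raised markers, or the best list mean by 0.5 on the log2 scale. Sub-clusters were made in the same way. Enteric sub-clusters led by genes of other cell types, 125 cells, stayed in the classes and were left out in an alternative.

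Levels are summed UMIs over the class total (CPM) with exact Poisson intervals, ratios have exact conditional binomial intervals, and shares exact Clopper-Pearson intervals; a count of 0 allows up to 3 counts. Ratios needed 20 UMIs. The ratio step was tested on simulated Poisson counts without variation between cells or libraries, so the test covers the calculation of counting intervals only. Python 3.11.15, numpy 2.4.6 and scipy 1.17.1 were used. The 8 genes, the partner lists and the tests were chosen with earlier results of these data known. Named genes are all 8 members, all genes of the GDNF family and endothelin partner lists that are described, and otherwise genes among the 3 most abundant of each list per class, some of which are not reported here; the 6 RET signalling genes named as higher in neuron-like cells, Grb10 in further classes, Actg2, S100a8 and sub-cluster marker genes were named after their values were seen. No p-value was computed. Alternatives changed the mitochondrial limit, doublet removal, resolution, class definition, scaling and thinning depth.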

Additional observations from a re-analysis of the deposited data

Results flagged for a closer look

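Both genes below moved in opposite directions in classes of the same libraries; with 1 library per group, the difference was not tested in either case.

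Gfra3 was higher in maternal obesity in glia-like cells, with a ratio over control of 3.40 (181 and 52 UMIs), and lower in lymphoid-like cells, with a ratio of 0.479 (37 and 31 UMIs). The glial value moved with the number of Olfml2a-led cells, 43 in maternal obesity and 16 in control, in which the level was 431 and 428 CPM.

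Ednrb was higher in maternal obesity in smooth muscle-like cells, with a ratio of 1.73 (2816 and 2008 UMIs), and lower in fibroblast-like cells, with a ratio of 0.411 (93 and 65 UMIs). Inside sub-clusters the smooth muscle-like ratio ran from 1.17 to 2.02, and the fibroblast-like ratio was 0.270 in the Shisa3-led cells and 1.07 in the Clec3b-led cells.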

How the results depend on the processing

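No paired analysis was possible because each group has 1 library. Leaving out a library was not possible for the same reason. The alternatives without the sub-clusters led by other cell types and with sub-clusters weighted equally were chosen after seeing the data.

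Of 497 alternative values of levels, 387 moved by less than the counting interval and 110 by more; of alternative ratios, 4 of 165 for pairs past 1.5-fold and 30 of 207 for pairs under 1.5-fold lay on the other side of 1; the 30 came from 11 of 23 pairs, among them Ednrb in neuron-like cells (0.636 to 1.41) and Edn3 in fibroblast-like cells (0.624 to 1.04). Ret in neuron-like cells was 151 CPM in maternal obesity and 100.4 CPM in control at a mitochondrial limit of 10%, 140.0 and 106 CPM without doublet removal, and 187 CPM in maternal obesity with classes from marker UMIs. Its ratio was 1.07 as a mean over cells and 1.58 with sub-clusters weighted equally. Edn3 in the Kit-high cluster was 391 and 473 CPM at the 10% limit (ratio 0.827), 381 and 462 CPM without the top 8% of doublet scores (0.825), and 464 CPM in maternal obesity with haemoglobin and mitochondrial genes left out of the CPM. Ednrb in glia-like cells was 1249 and 1265 CPM at resolution 2, 1249 and 1273 CPM with the 7 genes kept among the variable genes, 1179 CPM in maternal obesity without haemoglobin and mitochondrial genes, and 1191 CPM in control without the mixed sub-clusters; its ratio with sub-clusters weighted equally was 0.871. Smooth muscle-like Ednrb had a ratio of 1.26 with classes from marker UMIs and 1.43 with equal weights.

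The 11 higher pairs became 5 with classes from marker UMIs, and the 8 lower pairs 4 without the top 8% of doublet scores and 5 at resolution 0.5. Of pairs past 1.5-fold, direction changed for Gfra3 in epithelial-like cells (0.550) and Nrtn in erythroid-like cells (0.911) with classes from marker UMIs, for Nrtn in erythroid-like cells as a mean over cells (0.908), and for Ednrb in lymphoid-like cells without doublet removal (2.07); the cause was not tested. Shares rise with depth by construction: Ret in neuron-like cells was 12.8% in maternal obesity and 12.1% in control at 1000 UMIs, 36.0% and 31.6% at 4000, and 50.3% and 40.3% without thinning; Ednrb in glia-like cells was 63.0% and 65.3%, 95.4% and 94.1%, and 98.8% and 98.4%. Ret with Ednrb in progenitor-like cells was 30.1% and 19.0% without thinning. At a fold of 2 the RET signalling genes higher in neuron-like cells were 1 in place of 6. The progenitor-like class was not recovered at the 10% limit, without doublet removal, without the top 8% of doublet scores or at resolution 0.5, and the Kit-high cluster not with classes from marker UMIs, so these gave no value there.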
